A study of Mus musculus with 5 samples.

Results

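Extracellular matrix and integrin genes were described in the striatum of mice with the Adcy5 R419W knock-in allele (KI) and of their wild-type littermates (WT). The set held the protein-coding genes whose symbols name collagens, laminins, integrin alpha and beta chains, ADAMTS and ADAMTS-like proteins, matrix metalloproteinases (MMP) and their tissue inhibitors (TIMP), fibronectin, fibrillins, fibulins, and the matrix proteins of perineuronal nets (neurocan, brevican, aggrecan, link proteins and tenascins C and R). Of 153 such genes, 98 had a counted feature that could be tied to them, out of 8669 protein-coding genes with such a feature in the series. A further 28 had only a feature that also lay over other genes, among them Timp3, Timp4, Bcan, Itgb5 and Col1a1. The other 27 had none, among them Itgb1, Mmp2, Hapln1, Adamts1 and Col3a1. Of the 98, 62 had enough counts to be tested, and 1 of these, Itgb3bp, encodes an integrin-binding protein and shares only the name.

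The samples were striatal homogenates of adult mice, 3 WT libraries (replicates 1, 2 and 3) and 2 KI libraries (replicates 1 and 3), sequenced as stranded mRNA. No label gives the animals' sex, age beyond adult or zygosity, or says that the libraries come from different animals. The p-values below therefore reflect library-to-library variation, part of which may be technical. Adcy5 encodes the main striatal adenylyl cyclase, and the series title places the allele among hyperkinetic movement disorders. No feature covered Adcy5 exons, so the genotype labels could not be checked on the targeted gene. In a homogenate, fewer cells of a type and less RNA per cell cannot be told apart.

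The brain's matrix comes in several forms. Collagen IV and laminins build the basement membrane around vessels, fibrillar collagens and fibronectin lie in meninges and vessel walls, and the spaces between neurons hold hyaluronan, chondroitin sulfate proteoglycans and tenascin R, which condense into nets around some interneurons. Integrins are paired alpha and beta chains in the cell membrane that bind these proteins, while ADAMTS enzymes and MMPs cut them and TIMPs block MMPs.

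The counts fall where GRCm38 exons lie although the annotation used for counting was of GRCm39, so a feature takes its name from whichever GRCm38 gene has exons there. Such a feature usually holds part of a gene: the median member had 5.44% of its exon bases covered, 64 of 98 had under 10%, and 11 had at least 99%. The median feature had 14.4% of its own bases on the member's exons, and the rest held no exon of another protein-coding gene. Levels are CPM (counts scaled to library size) and belong to the covered part. Total counts were 6595105 to 7910584 per library, and 0 counts allow up to 0.379 to 0.455 CPM (3 counts, counting error only). Tested members had mean levels from 0.766 to 351 CPM, with a median of 4.72, and 22 reached 10 CPM. The striatal label could be checked on 7 markers of spiny projection neurons, the main cell type of this tissue, and all were detected in every library, Penk highest at 5296.1 to 8271.1 CPM.

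Coding stretches under the features show what the counts stand on, and the integrin and collagen examples are given because these families carry most of the lower levels described below. All are exons of GENCODE M21 transcripts in GRCm38, written 5′ to 3′ on the gene's strand. In the first pair, capitals mark codons for asparagine, any residue but proline, then serine or threonine, the letters of an N-glycosylation motif. The Itga9 exon lies at chr9:118871821-118871940 and the Itgav exon at chr2:83792551-83792643, both on the plus strand.
Itga9 exon 25: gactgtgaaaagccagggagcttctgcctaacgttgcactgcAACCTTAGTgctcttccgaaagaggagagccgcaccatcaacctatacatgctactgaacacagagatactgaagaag
Itgav exon 21: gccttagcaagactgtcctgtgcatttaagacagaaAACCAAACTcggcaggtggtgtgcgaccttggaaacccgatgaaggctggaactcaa
This motif was found in 16 of 50 integrin stretches of at least 9 codons and at most 300 bases (32%), against 15.6% of all 424 stretches of the members. A match is a description of the letters, not a used site.

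In the collagen exons, capitals mark glycine codons that recur after every 2 other codons, the repeat that lets collagen chains wind into a triple helix. The exons lie at chr6:4515481-4515534 (Col1a2), chr4:121045484-121045537 (Col9a2), chr2:180608432-180608485 (Col9a3), chrX:141635854-141635952 (Col4a5) and, on the minus strand, chr15:97991344-97991388 (Col2a1).
Col1a2 exon 8: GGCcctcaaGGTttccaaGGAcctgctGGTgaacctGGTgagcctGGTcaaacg
Col9a2 exon 13: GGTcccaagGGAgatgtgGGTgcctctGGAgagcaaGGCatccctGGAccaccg
Col9a3 exon 17: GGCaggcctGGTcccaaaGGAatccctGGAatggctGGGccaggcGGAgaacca
Col2a1 exon 17: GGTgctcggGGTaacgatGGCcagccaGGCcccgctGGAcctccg
Col4a5 exon 35: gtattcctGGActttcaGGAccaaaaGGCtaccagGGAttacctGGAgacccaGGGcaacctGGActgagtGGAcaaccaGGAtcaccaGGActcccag
This spacing held throughout 102 of 227 collagen stretches (44.9%), in 0 of the 50 integrin stretches and 0 of the 147 others. Of 190 whole collagen exons, 96 had a length divisible by 9 bases, the length of 1 repeat of 3 codons. Of these, 35 were exactly 54 bases long, and 34 of the 35 held the glycine spacing throughout. The exon bases under the features of Col9a2 and Col9a3 are 1 such exon each, and those of Col2a1 are 45 bases.

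No member of the set passed the test between KI and WT, and among the families the integrins had the largest share of members lower in KI (9 of 11). Under edgeR's quasi-likelihood test with Benjamini-Hochberg adjustment over all features, 0 of 62 members were called at an adjusted p under 0.05 (adjusted p 0.1046 to 0.9996), against 14 of 13665 features (0.102%). At an unadjusted p under 0.05 there were 8 of 62 members (12.9%; 6.4% of all features). All 8 were lower in KI (3.72% of all features were): Itga9, Itgav, Itgb2, Itgb4, Col4a5, Col5a2, Col6a5 and Adamts2. DESeq2 called 1 member, Itga9 (0.951% of all features were called), and limma voom called 0 (0.381%).

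The direction over all tested members was mixed. In KI 36 of 62 were lower (58.1%; 50.3% of all features) and 26 higher, with a median log2 fold change of -0.07 against -0.00 over all features. Both KI libraries lay below all 3 WT libraries in 13 members (21%; 11.1% of all features) and above them in 2, Tnr and Fbln2 (3.23%; 11.3% of all features). The median turned with the KI libraries: without KI replicate 1 it was 0.06, and without KI replicate 3 it was -0.30.

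**Figure D1:**
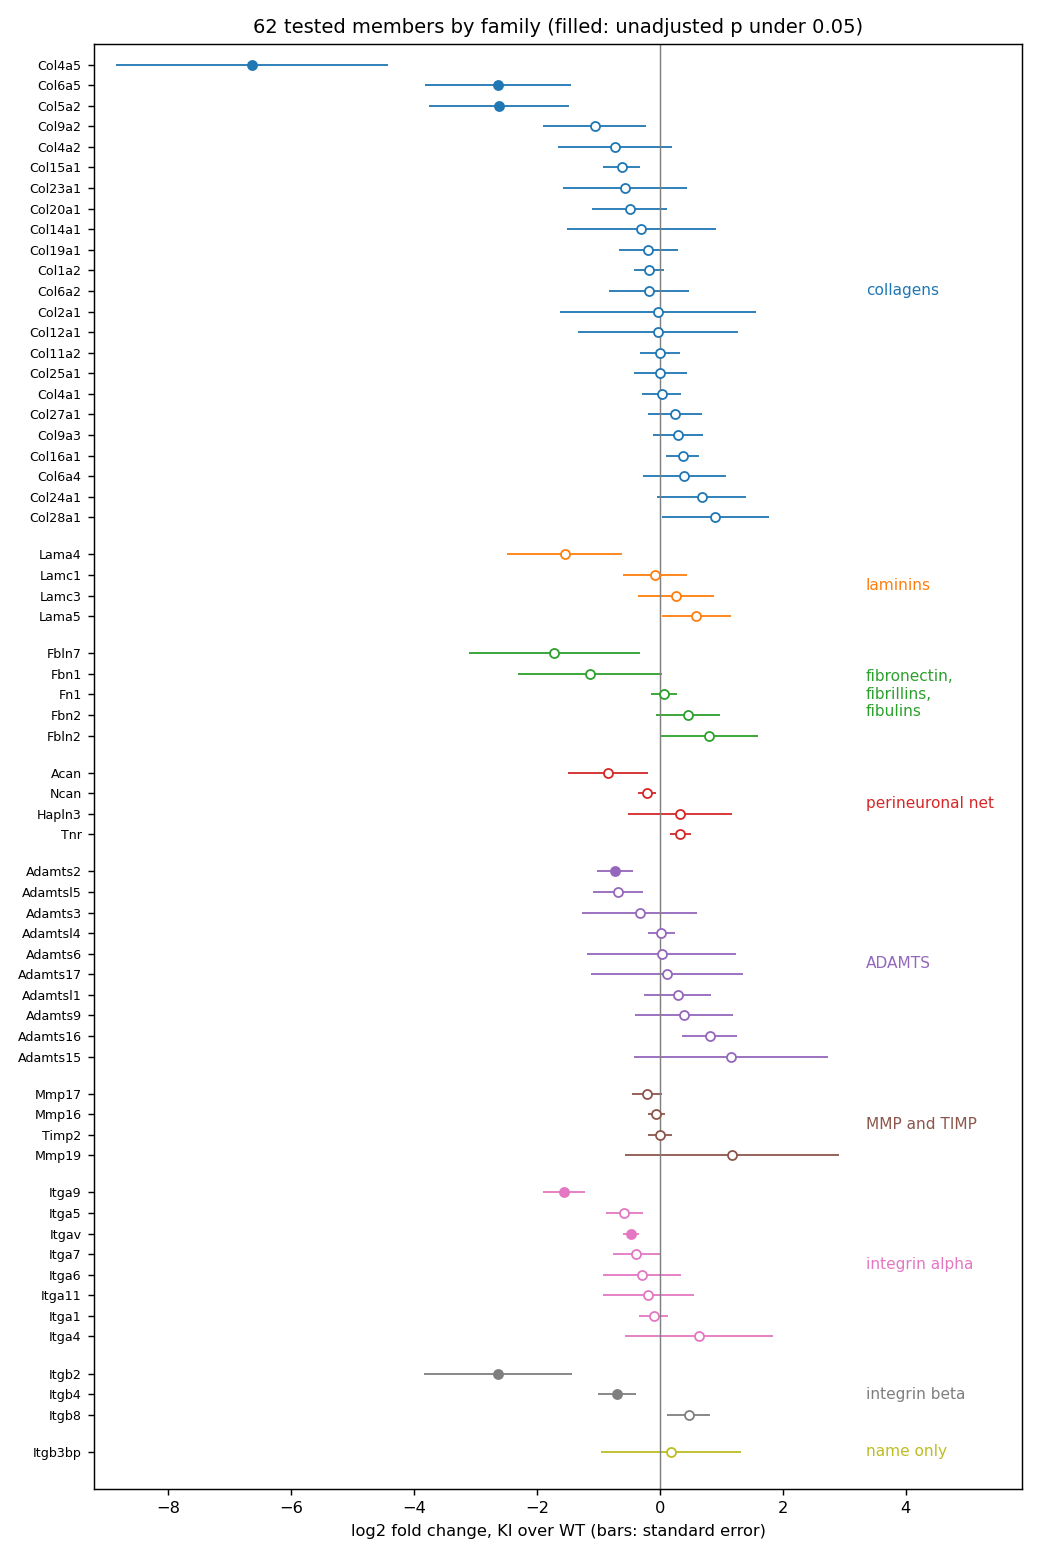
Fitted log2 fold change (KI over WT, x axis) with its standard error for each of the 62 tested members, grouped by family. Filled points have an unadjusted p under 0.05, and all 8 of them lie left of 0. The value of Col4a5 rests on 0 counts in both KI libraries and is no measure of size.

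Among the integrin alpha chains, 7 of 8 tested members were lower in KI and 1 was higher, with a median log2 fold change of -0.34 and 0 called. Libraries are listed here and below as WT 1, 2 and 3, then KI 1 and 3. Itga9, the alpha chain of a receptor for tenascin C and osteopontin (chromosome 9, 118606690 to 118901003), had levels of 37.0, 75.0 and 54.3 CPM in WT and 11.5 and 25.9 CPM in KI. Every WT library was above both KI libraries, though the WT libraries spanned about as much as the difference between the group means. The means were 55.5 ± 19.0 CPM in WT (SD, n = 3) and 18.7 ± 10.2 CPM in KI (SD, n = 2). The log2 fold change was -1.56 (SE 0.34), with an edgeR quasi-likelihood p of 0.0005668 and an adjusted p of 0.1046.

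This Itga9 result lay near the threshold and its call depended on the fit. It passed with DESeq2 (adjusted p 0.001392), with no filter on low counts (edgeR, adjusted p 2.099e-08) and without WT replicate 1 (edgeR, adjusted p 0.003998). It did not pass with limma voom (adjusted p 0.07915) or without WT replicate 2 (edgeR, adjusted p 0.4989). The log2 fold change ran from -2.26 without KI replicate 3 to -1.10 without KI replicate 1, and was below 0 in all 15 alternatives.

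Itga9 was also read by 3 further features over other exon bases. The main feature, of 1199 exon bases, lies in the last of 28 exons, mostly its untranslated part. A neighbouring feature of 361 bases in the same exon gave -0.55 (SE 0.40), and since it adjoins the first, read pairs can count in both. A feature of 325 exon bases had 2.36, 6.55 and 8.57 CPM in WT and 0.68 and 4.71 CPM in KI, with a log2 fold change of -1.10 (SE 0.78), and the groups overlapped. Of its bases, 120 are exon 25, the exon printed above, and 205 lie within no single exon of a protein-coding transcript. The feature over parts of exons 9 and 15 and all of exon 11 had 11.3, 20.2 and 11.3 CPM in WT and 7.32 and 5.94 CPM in KI, without overlap. That is a log2 fold change of -1.11 with SE 0.39 and an edgeR adjusted p of 0.5312. All 4 Itga9 features were thus lower in KI, none past the threshold. The 361-base feature also lies over exons of Gm2415, and the one over exons 9, 11 and 15 also over exons of 4933432G23Rik. Counting ignored strand, so reads of those genes cannot be told apart from Itga9 reads there.

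Itgav, an alpha chain that pairs with several beta chains and binds fibronectin, vitronectin and latent TGF-beta (chromosome 2, 83724397 to 83806916), was read at 162.1, 148.9 and 159.8 CPM in WT and 114.1 and 113.1 CPM in KI. The WT mean was 157 ± 7.05 CPM (SD, n = 3) and the KI mean 114 ± 0.732 CPM (SD, n = 2), a 1.38-fold lower level without overlap. The log2 fold change was -0.47 (SE 0.13), with an edgeR p of 0.00264 and an adjusted p of 0.2477, and lay between -0.50 and -0.42 in the alternatives, none of which called it. The feature covers 2493 bases of the last exon, all untranslated. A second feature over exons 20 to 22, which include the printed exon 21, had 42.4, 31.4 and 34.6 CPM in WT and 30.2 and 29.3 CPM in KI, again without overlap (log2 fold change -0.28, SE 0.22, edgeR adjusted p 0.9656).

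The other alpha chains had smaller or less certain differences. Itga5, the fibronectin receptor chain, had 18.8, 29.3 and 29.5 CPM in WT and 13.6 and 21.1 CPM in KI (log2 fold change -0.58, SE 0.30), with KI 3 above WT 1. Itga1, a collagen receptor chain read over 4288 exon bases, had 20.9 to 25.7 CPM in all libraries (-0.10, SE 0.24). Itga6 and Itga7, which bind laminins, gave -0.29 (SE 0.64) and -0.38 (SE 0.38). The collagen receptor chain Itga11 gave -0.19 (SE 0.74), and Itga4, found on leukocytes, gave 0.64 (SE 1.20) at 2.44 CPM or less.

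Of 3 tested integrin beta chains, 2 were lower in KI. Itgb4, the partner of Itga6 in laminin binding, had 23.6, 14.6 and 17.8 CPM in WT and 12.5 and 10.6 CPM in KI. The groups did not overlap, but the log2 fold change of -0.69 (SE 0.31) had an edgeR adjusted p of 0.77 and rests on 198 exon bases. Itgb2, the beta chain of leukocytes and microglia, was near the limit of detection, with 9, 23 and 21 counts in the WT libraries against 3 counts in each of KI 1 and KI 3, a fitted difference of -2.63 on the log2 scale (SE 1.20, edgeR adjusted p 0.77). The 87 exon bases read for Itgb2 here lie within no single exon of a protein-coding transcript. A second Itgb2 feature, over 6 coding bases of exon 5, gave 0.13 (SE 1.18). Itgb8, a partner of Itgav in the activation of latent TGF-beta, gave 0.47 (SE 0.35), with 10.5, 7.62 and 15.0 CPM in WT and 16.7 and 13.9 CPM in KI, and the groups overlapped.

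Added over the integrins with a feature, the level was 300, 336 and 320 CPM in WT and 207 and 232 CPM in KI, and Itgav and Itga9 made up most of it. Of 11 tested integrins 9 were lower, 4 of them without overlap (36.4%; 11.1% of all features), and the median was -0.38. With unscaled library totals 9 were still lower. Without KI replicate 1 the count was 8 of 12 with a median of -0.17, and without WT replicate 2 it was 8 of 10 with a median of -0.13. Beside this, the 2 microglia markers with a feature, Aif1 and Trem2, summed to 21.4, 26.9 and 28.6 CPM in WT and 17.2 and 21.2 CPM in KI. The 2 cortical neuron markers, Slc17a7 and Neurod2, summed to 75.1, 319 and 240 CPM in WT and 103 and 23.8 CPM in KI, so these markers differed several-fold between libraries of 1 genotype. The 7 spiny projection neuron markers summed to 9195, 12101 and 10908 CPM in WT and 7903 and 8866 CPM in KI, mostly Penk. Of the 7, 5 were lower in KI, Rgs9 the most (-1.03, SE 0.19, edgeR adjusted p 0.06338), while Tac1 (0.14) and Arpp21 (0.22) were higher. The part of these differences in the integrin values was not tested.

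**Figure D2:**
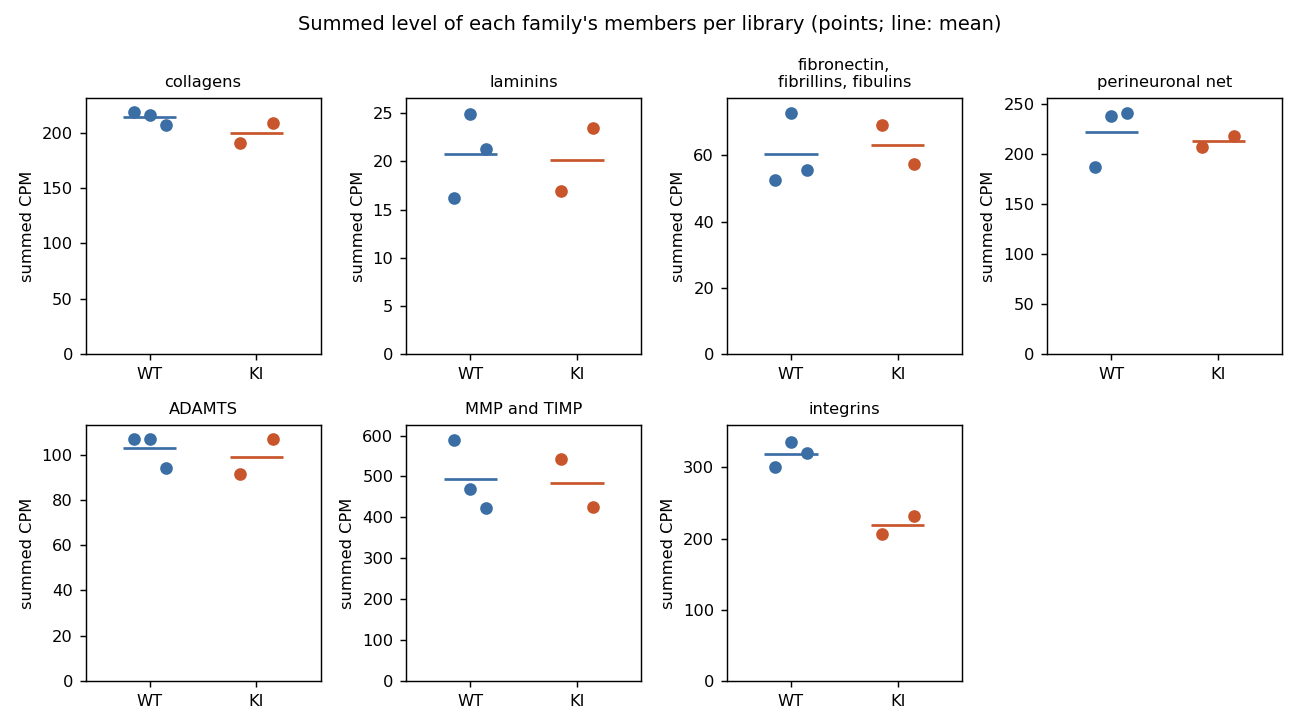
Summed CPM of all members with a feature (y axis) in each WT and KI library, 1 panel per family, with lines at the group means. The integrin sums do not overlap (300 to 336 CPM in WT, 207 and 232 CPM in KI), and in the other families at least 1 KI library lies within the WT range.

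Among the collagens, 15 of 23 tested members were lower in KI and 8 higher, with a median log2 fold change of -0.18 and 0 called. That majority was not stable: 12 were lower with unscaled library totals, and without KI replicate 1 only 10 of 24 were, at a median of 0.06. Added over the family, levels were 219, 216 and 207 CPM in WT and 191 and 209 CPM in KI. Only Col1a2, Col15a1 and Col28a1 were read over their whole exon length, at mean levels of 4.15, 2.99 and 0.531 CPM per kilobase. Over the libraries Col1a2 ran from 2.62 to 5.07 and Col15a1 from 2.13 to 4.21 CPM per kilobase, so these 2 overlapped.

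Col1a2, a chain of the main fibrillar collagen, had 53.5, 50.7 and 57.9 CPM in WT and 63.0 and 32.6 CPM in KI. The KI libraries lay on either side of the WT libraries, and the log2 fold change was -0.18 (SE 0.24). Col11a2, a chain of a minor fibrillar collagen, showed the reverse order in KI, with 27.1, 26.7 and 28.9 CPM in WT, 15.0 in KI 1 and 39.9 in KI 3 (-0.00, SE 0.33). Col15a1, found at basement membranes, had 23.9, 26.7 and 15.6 CPM in WT and 13.6 and 15.1 CPM in KI, just without overlap (-0.62, SE 0.30, edgeR adjusted p 0.8011). Markers of meningeal and perivascular fibroblasts summed to 1048, 938 and 887 CPM in WT and 1407 and 839 CPM in KI, mostly Ptgds and with Igf2 at 0, and their part in the collagen values was not tested.

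The 3 collagens with an unadjusted p under 0.05 were all at low counts. Col4a5, a basement membrane chain, had 16, 8 and 12 counts in the WT libraries against 0 in both KI libraries, at least 8.60-fold lower against a floor of 3 counts over the KI group (0.194 CPM; edgeR adjusted p 0.495). Its feature covers exons 35 and 36. A second Col4a5 feature, over exon 30, had 2.10, 0.67 and 3.21 CPM in WT and 0.41 and 0.74 CPM in KI, with overlap (-1.76, SE 1.27). Col5a2, a fibrillar chain, had 5.25, 5.08 and 2.14 CPM in WT and 1.36 and 0.00 CPM in KI (-2.61, SE 1.14, edgeR adjusted p 0.7401). A second Col5a2 feature of 661 exon bases, in parts of exons 44 to 54, gave -0.06 (SE 0.85), so the 2 readings of this gene differ. Of the 949 exon bases under the first, stretches of 603 and 168 lie within no single exon of a protein-coding transcript. Col6a5, a chain of the beaded-filament collagen VI, had 1.97, 3.74 and 1.84 CPM in WT and 0.54 and 0.25 CPM in KI (-2.63, SE 1.19, edgeR adjusted p 0.77).

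The vessel collagen Col4a1 had 12.5, 12.8 and 13.8 CPM in WT and 10.6 and 16.0 CPM in KI in its largest feature (0.03, SE 0.32). A second Col4a1 feature, over 42 exon bases, had 6.30, 7.75 and 6.89 CPM in WT and 0.81 and 4.58 CPM in KI, without overlap (-1.36, SE 0.65, edgeR adjusted p 0.8034). Its partner Col4a2 had 0.46 to 6.04 CPM (-0.73, SE 0.93). Of the 3 endothelial markers with a feature, Tek had 13.1, 17.4 and 17.8 CPM in WT and 6.78 and 13.0 CPM in KI (-0.70, SE 0.36). Pecam1 gave -0.44 (SE 0.59) and Slc2a1, which makes up most of their sum, 0.21 (SE 0.16). Of 4 pericyte and smooth muscle markers with a feature, the 3 tested were all higher in KI. Pdgfrb had 4.20, 6.15 and 3.52 CPM in WT and 9.21 and 11.6 CPM in KI (1.17, SE 0.43, edgeR adjusted p 0.5953). Myh11 and Cspg4 gave 0.20 (SE 0.56) and 0.24 (SE 0.31). The part of either marker group in the collagen IV values was not tested. Col16a1, a fibril-associated collagen, had 23.1, 15.9 and 17.3 CPM in WT and 22.0 and 26.5 CPM in KI (0.37, SE 0.27), and the groups overlapped. Col20a1, also fibril-associated, had one of the widest ranges among members of at least 5 CPM, from 2.03 CPM in KI 1 to 8.57 CPM in WT 3, without a split by genotype (-0.49, SE 0.61).

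Of 11 laminins, 5 had a feature and 4 were tested, each read over 4.5% to 14.8% of its exon bases. In these parts CPM were low and without a common direction: 2 of 4 were lower and 2 higher, with 0 called. Per kilobase of covered exon, the mean level ran from 1.53 CPM (Lama4) to 21.1 CPM (Lamc1). The most uneven was Lama4, the alpha chain of vessel basement membranes, at 2.63, 3.47 and 5.05 CPM in WT and 0.27 and 2.23 CPM in KI (-1.55, SE 0.94, edgeR adjusted p 0.8913). The groups did not overlap. Lama5 had 3.15, 6.95 and 3.37 CPM in WT and 9.21 and 4.33 CPM in KI (0.59, SE 0.56). Lamc1, the gamma chain shared by most laminins, had 3.66 to 11.5 CPM, with both ends of that range in KI (-0.08, SE 0.52).

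Fibronectin, fibrillins and fibulins gave 3 higher and 2 lower members of 5, with a median of 0.07 and 0 called. Fn1, the soluble and fibrillar ligand of Itga5 and Itgav, had 42.8, 62.0 and 46.1 CPM in WT and 60.6 and 44.8 CPM in KI (0.07, SE 0.21), and the groups overlapped. Fbn2, a microfibril protein, had 4.73, 4.01 and 3.98 CPM in WT and 4.47 and 7.18 CPM in KI (0.46, SE 0.52). Both fibulins were at low counts: Fbln2 was at 1.58 to 2.14 CPM in WT and 2.44 and 4.21 CPM in KI, and Fbln7 at 1.74 to 2.36 CPM in WT and 1.22 and 0.00 CPM in KI. A second Fbln7 feature gave 0.03 (SE 1.35). Neither came near the threshold (edgeR adjusted p 0.9977 and 0.9668).

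**Figure D3:**
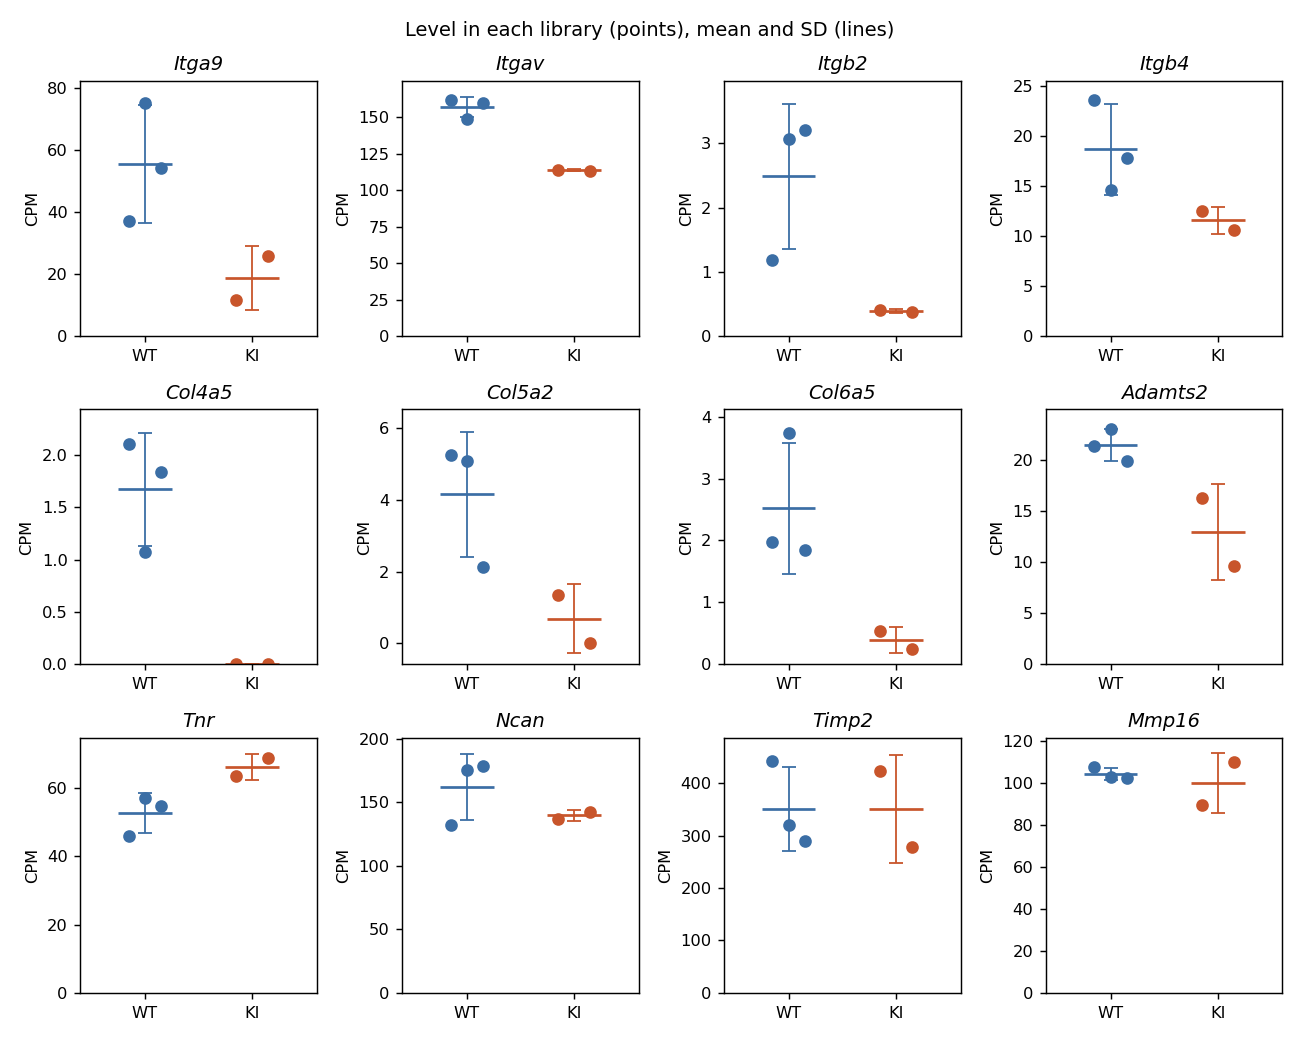
CPM (y axis, from 0 in all panels but Col5a2, whose SD bar reaches below 0) of 12 members in each WT and KI library, with mean and SD. In Itga9, Itgav, Itgb2, Itgb4, Col4a5, Col5a2, Col6a5 and Adamts2 both KI points lie below every WT point, in Tnr both lie above, and in Ncan, Timp2 and Mmp16 the groups overlap.

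In the perineuronal net group, 2 of 4 tested members were higher and 2 lower, with 0 called. Tnr encodes tenascin R, which cross-links proteoglycans and is made by oligodendrocytes and some interneurons. It had 46.1, 57.1 and 54.9 CPM in WT and 63.6 and 68.9 CPM in KI, and both KI libraries were above all WT libraries. The log2 fold change was 0.33 (SE 0.17, edgeR p 0.07364, adjusted p 0.8329). A second Tnr feature, over exon 8, showed the same split, with 15.0, 20.2 and 16.4 CPM in WT and 26.3 and 24.6 CPM in KI (0.57, SE 0.26, edgeR p 0.04611, adjusted p 0.77). Oligodendrocyte markers summed to 2071, 1561 and 1595 CPM in WT and 1470 and 1522 CPM in KI, mostly Cnp, and interneuron markers to 74.9 to 87.7 CPM in WT and 83.3 and 75.9 CPM in KI, mostly Chat. The 4 oligodendrocyte precursor markers with a feature summed to 59.9, 75.2 and 79.3 CPM in WT and 78.7 and 79.3 CPM in KI. Of these 4, 3 were higher in KI, among them Pdgfra without overlap (0.37, SE 0.20). The other, Vcan, was lower without overlap (-1.13, SE 0.46). The part of any of these cell types in the Tnr values was not tested.

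Ncan, the neurocan core protein, had 132.1, 175.8 and 178.9 CPM in WT and 137.0 and 142.8 CPM in KI. WT 1 was the lowest library of the 5, and the log2 fold change was -0.21 (SE 0.15). Acan, the aggrecan of dense nets, was at 6.96, 3.07 and 4.90 CPM in WT and 3.79 and 1.73 CPM in KI (-0.85, SE 0.65). The link protein gene Hapln3 had 1.74 to 3.10 CPM in all libraries. Tnc, the embryonic tenascin and a ligand of Itga9, had 0, 4 and 2 counts in the WT libraries against 5 and 12 in KI 1 and KI 3, over 0.553% of its exon bases, too few to test.

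Of 10 tested ADAMTS and ADAMTS-like genes, 7 were higher and 3 lower, with a median of 0.08 and 0 called. This split was not stable: 5 of 10 were higher with limma voom and without WT replicate 3, and without KI replicate 3 it was 5 of 11, at a median of -0.35. Adamts2, which removes the amino-terminal propeptide of fibrillar procollagens, had the smallest p of the family. It had 21.4, 23.0 and 19.9 CPM in WT and 16.3 and 9.66 CPM in KI, 1.65-fold lower by the means without overlap with a log2 fold change of -0.73 (SE 0.30) and an edgeR adjusted p of 0.6935. Its 3 further features, over other exons, gave -1.46 (SE 0.76), -0.72 (SE 0.64) and -1.25 (SE 1.01), so all 4 were lower in KI. Without KI replicate 3 the main feature gave -0.40, and without KI replicate 1 it gave -1.15. Of its 736 exon bases, 546 lie within no single exon of a protein-coding transcript.

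Adamtsl5 and Adamts3 were the other 2 lower members. Adamtsl5 had 7.36, 13.5 and 13.3 CPM in WT and 7.72 and 6.44 CPM in KI (-0.68, SE 0.40), with overlap, and Adamts3 gave -0.33 (SE 0.94). The best detected of the family, Adamtsl4, a microfibril-binding protein without protease activity, had 55.0, 51.3 and 40.1 CPM in WT and 38.3 and 60.7 CPM in KI (0.02, SE 0.22). Adamts16 had 5.78, 4.28 and 8.11 CPM in WT and 14.4 and 6.93 CPM in KI (0.81, SE 0.45), with 1 KI library inside the WT range. For 3 members the counts lay almost wholly in KI 3, a pattern noticed after the values were seen: Adamts13 (0 counts in 4 libraries and 18 in KI 3), Adamtsl3 (0 and 8) and the collagen Col4a3 (1 count in WT 3 and 22 in KI 3). KI 3 is also the library with the highest choroid plexus markers: the 5 markers with a feature summed to 413, 345 and 388 CPM in WT, 292 CPM in KI 1 and 2617 CPM in KI 3, where Ttr alone had 2093.0 CPM. The Adamtsl3 feature has only 6 of its 3355 bases on Adamtsl3 exons, so its 8 counts may not come from that gene's transcripts. Whether the reads of these 3 genes come with choroid plexus tissue was not tested.

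MMPs and TIMPs were led by Timp2, an inhibitor that also helps membrane-type MMPs activate pro-MMP2. It had the highest level of the set, at 442.5, 319.4 and 290.2 CPM in WT and 422.9 and 278.3 CPM in KI, and the libraries of each genotype differed more than the genotype means (-0.00, SE 0.19). Mmp16, a membrane-type metalloproteinase read over its whole length, was even, with 107.6, 103.0 and 102.5 CPM in WT and 89.7 and 110.0 CPM in KI (-0.06, SE 0.14). Mmp17, the GPI-anchored enzyme, had 28.9 to 47.2 CPM (-0.21, SE 0.24), and Mmp19, a secreted enzyme, had 1.53 CPM or less (1.18, SE 1.74). A second Mmp19 feature had up to 4.95 CPM (-0.91, SE 0.94). Of the 4, 3 had a log2 fold change below 0, 2 with unscaled library totals, and 0 were called.

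Several secreted MMPs had almost no counts. Features over at least 99% of the exon bases of Mmp7, Mmp10, Mmp13, Mmp20 and Mmp27 held 0 counts in all 5 libraries, and those of Mmp3 and Mmp8 held 2 counts each. Mmp16, also read over its whole length, stood at 11.8 CPM per kilobase. In all, the representative features of 36 of the 98 members were too low to test, 12 of them with 0 counts and the others with 2 to 37 counts in total. Of the 12, 10 had 0 counts in every feature tied to the gene, among them the leukocyte chains Itgae and Itgad. The other 2 had counts in a further feature: Col13a1 had 6 counts in WT 3, and Itgal, another leukocyte chain, had 8 counts in KI 1 and 20 in KI 3 and 0 in WT in each of 2 features. Since a read pair counts in every feature it overlaps, these 2 Itgal features may hold the same pairs. Adamts10, Col5a3 and Mmp14 were tested through a further feature only. Mmp14, the main membrane-type MMP, had 5 such features of 14 to 61 exon bases, at 1.07 to 12.1 CPM, with log2 fold changes from -0.26 to 0.35.

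**Figure D4:**
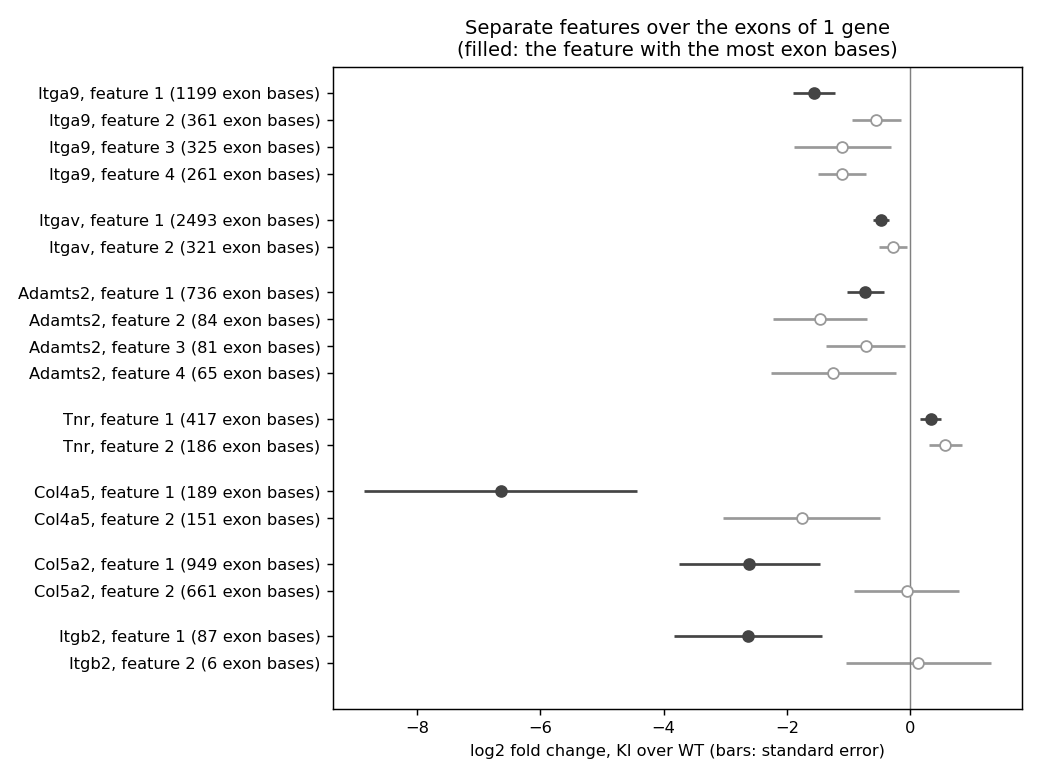
Fitted log2 fold change (KI over WT, x axis) with standard error for separate features over different exon bases of the same gene. The features of Itga9, Itgav and Adamts2 all lie below 0 and both of Tnr above it, while the 2 features of Col5a2 differ in size and those of Itgb2 lie on both sides of 0.

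Of 22 members with at least 2 tested features that share no base, 12 (54.5%) had all of them on the same side of 0, 8 lower and 4 higher in KI. Over all protein-coding genes with such features it was 719 of 1396 (51.5%), so the members' share was close to the background. Besides the genes above, Col12a1 (-0.03 and -0.28), Col11a2 (-0.00 and -0.24) and Lama4 (-1.55 and -0.39) were lower in each reading, and Fn1 (0.07 and 0.33), Col27a1 (0.25 and 0.38) and Itgb8 (0.47 and 0.04) higher. The other 10 members had readings on both sides, for example Fbn2 (0.46 and -0.24) and Itga1 (-0.10 and 0.27).

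Genes that work with the set were mostly even. Of 27 tested other matrix genes, 15 were higher and 12 lower (median 0.09) and 1 was called (0.102% of all features were). It was Abi3bp, a secreted matrix protein, at 11.6, 15.2 and 18.8 CPM in WT and 2.03 and 1.49 CPM in KI (-3.10, SE 0.45, edgeR adjusted p 0.01561). Reln, the secreted guidance protein reelin, had 30.2, 44.1 and 35.5 CPM in WT and 55.3 and 66.9 CPM in KI (0.74, SE 0.20, edgeR adjusted p 0.2583). Vcan, the lectican versican, had 8.14, 17.4 and 13.2 CPM in WT and 3.66 and 8.05 CPM in KI (-1.13, SE 0.46, edgeR adjusted p 0.6728). In both Reln and Vcan, the groups did not overlap and the threshold was not passed. Over all features, both KI libraries lay above all WT libraries in 11.3% and below them in 11.1%.

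Among 14 genes of matrix synthesis and processing, 7 were higher and 7 lower, with 0 called and a median of 0.02. P4ha3, a subunit of the prolyl hydroxylase that modifies collagen, had 11.2, 5.61 and 2.76 CPM in WT and 18.3 and 13.0 CPM in KI (1.25, SE 0.48, edgeR adjusted p 0.614). Other cell surface receptors for matrix (9 tested, 5 higher and 4 lower, 0 called, median 0.01) included Ptprz1, the proteoglycan receptor that binds tenascin R, at 974.5 to 1125.0 CPM in all libraries. Integrin adaptors (10 tested, 4 higher and 6 lower, 0 called) had a median of -0.05. The talin Tln2, which links integrin tails to actin, was at 121.3 to 152.4 CPM, and the kindlin Fermt2 at 166.7 to 189.0 CPM, both with overlapping groups. Their log2 fold changes were -0.11 and -0.09.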

How the data were processed

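Striatal mRNA libraries (3 WT, 2 KI) were analysed from raw counts of read pairs per feature, made by the authors with featureCounts 2.0.1 and, per the file headers, the Ensembl 103 annotation of GRCm39, each pair counted in every feature it overlapped and without regard to strand. Overlapping and antisense genes therefore cannot be told apart. Which aligner and which alignment build were used is not given in the sources used here. Because counts fall where GRCm38 exons lie, each of 53700 features was named with bedtools 2.31.1 by the GENCODE M21 gene at its positions (sole gene or sole protein-coding gene), and no coordinate was converted. This named 16422 features (57.63% of counts), and 3377 over several genes (41.31%) were not used. A gene with several features was represented by the one with the most exon bases. In 10 of the 62 tested members the deposited gene label is the gene's own.

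Low features were dropped by filterByExpr, TMM factors set the scale, and KI was compared with WT by the quasi-likelihood test of edgeR 4.0.16 in R 4.3.3 over 13665 features, p-values being Benjamini-Hochberg adjusted and called under 0.05. The biological coefficient of variation was 29.8%. CPM use TMM-scaled totals. Alternatives were other scalings, no filter, a replicate block, each library left out, DESeq2 1.42.0, limma voom 3.58.1, a rate of 0.10, and other ways of naming features. Members, gene lists and the rule for named genes were chosen with earlier results of these data known. The rule names in each family the 2 smallest p-values and the 2 highest levels, all unadjusted p-values under 0.05, calls of the other tools and the 2 widest ranges. Genes named beyond it, among them Itga5, Itga1, Col15a1, Col4a1, Acan, Tnc and those with KI 3 counts alone, were chosen after their values were seen.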

Additional observations from a re-analysis of the deposited data

How the results depend on the processing

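The count of called members was 0 in the reported fit and under RLE scaling, unscaled totals, limma voom, a rate of 0.10 and 3 ways of naming features. It was 1, Itga9, with no low-count filter, with DESeq2 and with the replicate number as a block. Leaving out a library gave 0 to 1 called members, the 1 without WT replicate 1. Over all features the 14 calls became 183 with no filter, 130 with DESeq2, 52 with limma voom, 67 at a rate of 0.10, and 2 (without WT replicate 3) to 161 (without WT replicate 1) with a library left out. Without WT replicate 2, KI replicate 1 or KI replicate 3 they were 3, 30 and 6. The members' median of -0.07 ran from -0.30 without KI replicate 3 to 0.06 without KI replicate 1. Where 1 KI library is left, its variation is taken to be that of the WT libraries. With the replicate block 154 features were called. Only numbers 1 and 3 occur in both genotypes. Deviations from the group mean in KI 1 correlated with those in WT 1, 2 and 3 at 0.111, -0.054 and -0.070. With 2 KI libraries, the values for KI 3 are the same with opposite sign (0.070 with WT 3). These correlations therefore cannot settle whether same-numbered libraries are paired. No label states a pairing, and the reported fit uses no block. Itga9 had an adjusted p of 0.002584 in edgeR with the block. Of 412 values of the 28 named members under alternatives, 33 lay on the other side of 0, and 17 members never did. Parts of genes at low counts and 2 KI libraries limit what can be called. Members read over part of their exons, detected or not, say nothing of the whole transcript, and 0 counts give only an upper bound.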
